A study of Mus musculus with 6 samples.

Results

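Of 26776 genes in the deposited table, 37 have a symbol of the Fanconi anaemia, DNA break repair and lesion bypass families named here. They were chosen by symbol, with earlier results of these data known. The symbols were the Fanc genes, the Rad50 to Rad59 names, Xrcc1 to Xrcc6, Brca1, Brca2, Palb2 and Brip1. Added to these were the ligase genes Lig1, Lig3 and Lig4, and the polymerase genes Polh, Poli, Polk and Polq. By role, 10 belong to crosslink repair, 15 to homologous recombination, 7 to end joining and 5 to other steps. All 37 are protein-coding and all passed the filter on low counts, in which 18081 genes remained.

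The cells were labelled LT-HSCs, the name of the long-lived stem cells that sustain blood formation, and came from bone marrow of Trim47+/eGFP mice. Their genotype name reads as a green fluorescent reporter on 1 allele of Trim47. Cells with low (eGFPlo) and high (eGFPhi) reporter fluorescence gave 3 libraries each. No drug treatment, age, sorting gate or number of animals is given in the sources used here. Whether the libraries of 1 group are separate mice or sorts is likewise not stated, so the p-values reflect the spread among these libraries alone, which may be technical.

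Crosslink repair in the Fanconi anaemia pathway starts when FANCM anchors a core complex to a blocked fork. The FANCL subunit of that complex attaches ubiquitin to the paired proteins FANCD2 and FANCI, which opens the way to incision, lesion bypass and recombination. Recombination copies the intact sister chromatid: BRCA1, PALB2 and BRCA2 act together at the broken end to prepare the search for a matching strand. End joining instead seals both ends directly, through the Ku ring (Xrcc5 and Xrcc6) and the ligase pair XRCC4 and LIG4, or through polymerase theta (Polq). Inherited loss of Fanconi genes causes bone marrow failure, and many recombination genes, though not all, are expressed mainly in cells that replicate their DNA.

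Levels are given as CPM, the count of a gene as a share of its library after TMM scaling. All 18081 genes were fitted together by edgeR's quasi-likelihood method. Each fold change sets eGFPhi against eGFPlo and has a standard error (SE) in log2 units. Its p-value comes with Benjamini-Hochberg adjustment over all of them. A gene is said to have risen or fallen at an adjusted p under 0.05. Positions are on mouse build GRCm38.

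Totals ran from 11221070 to 26058391 counts per library, and the lowest count of any repair gene was 26, for Rad51c in eGFPhi replicate 1. Trim47, the gene of the sorted reporter, stood at 7.28, 8.18 and 8.92 CPM in eGFPlo replicates 1 to 3 and at 21.6, 26.2 and 23.3 CPM in eGFPhi, so the groups did not overlap (log2 fold change 1.54, SE 0.11, adjusted p = 1.69e-05). The sort itself selected for this difference, which therefore only checks the labels. An exact two-sided permutation test of these 6 values gave p = 0.1, the smallest that 3 libraries against 3 allow. Of all genes tested, 64.0% passed the threshold, 32.3% higher and 31.7% lower in eGFPhi. HSC markers were measured in both groups: their summed level was 416 to 449 CPM in eGFPlo and 1395 to 1606 CPM in eGFPhi, and all 9 tested of 10 rose.

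Markers of other cells were not equal in the groups. All 10 granulocyte-monocyte progenitor markers fell, from a summed 5341 to 5456 CPM in eGFPlo to 301 to 305 CPM in eGFPhi. All 12 B lineage markers fell, from 6262 to 6353 CPM to 737 to 761 CPM, and Vpreb3 and Igll1 had no count in eGFPhi. In eGFPlo both of these sums were above that of the HSC markers (416 to 449 CPM). Single genes weighed heavily in these sums. In mean CPM, Ighm had 3026 and Mpo 3885 in eGFPlo, against 394 and 189 in eGFPhi. Sums over unlike lists do not measure shares of cells. The LT-HSC label therefore does not fully describe the RNA measured, most of all in eGFPlo. Of 7 erythroid markers 6 fell and 0 rose, with sums of 69.3 to 89.0 and 27.3 to 35.2 CPM. Of 7 T and NK markers 4 were tested, of which 3 fell and 1 (Klrb1c) rose. The 7 summed to 57.3 to 58.6 CPM in eGFPlo and 10.8 to 12.6 CPM in eGFPhi. Cd3e, Cd3g, Cd3d and Trbc2 had no count in eGFPhi. Cd3e, Cd3g and Cd3d were too low to test, and in eGFPlo they had means of only 0.228, 1.14 and 0.123 CPM. The part of these marker differences in the results on repair genes was not tested. In these bulk libraries fewer cells of a type and less RNA per cell cannot be told apart.

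More repair genes fell than rose. Of the 37, 22 fell and 6 rose in eGFPhi, or 59.5% and 16.2%, against 31.7% and 32.3% of all genes tested, and their median log2 fold change was -0.33 against 0.00 for all genes. The changes were mostly under 2-fold: 1 gene fell (Lig4) and 1 rose (Fancf) by more. The 3 eGFPhi libraries lay below all 3 eGFPlo libraries for 23 of the 37 and above them for 7, where 34.6% and 35.2% of all genes tested did so. With an assumed biological coefficient of variation of 0.2, in place of the fitted 0.0941, 12 fell and 2 rose in a likelihood ratio test, against 16.5% and 20.1% of all genes.

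**Figure D1:**
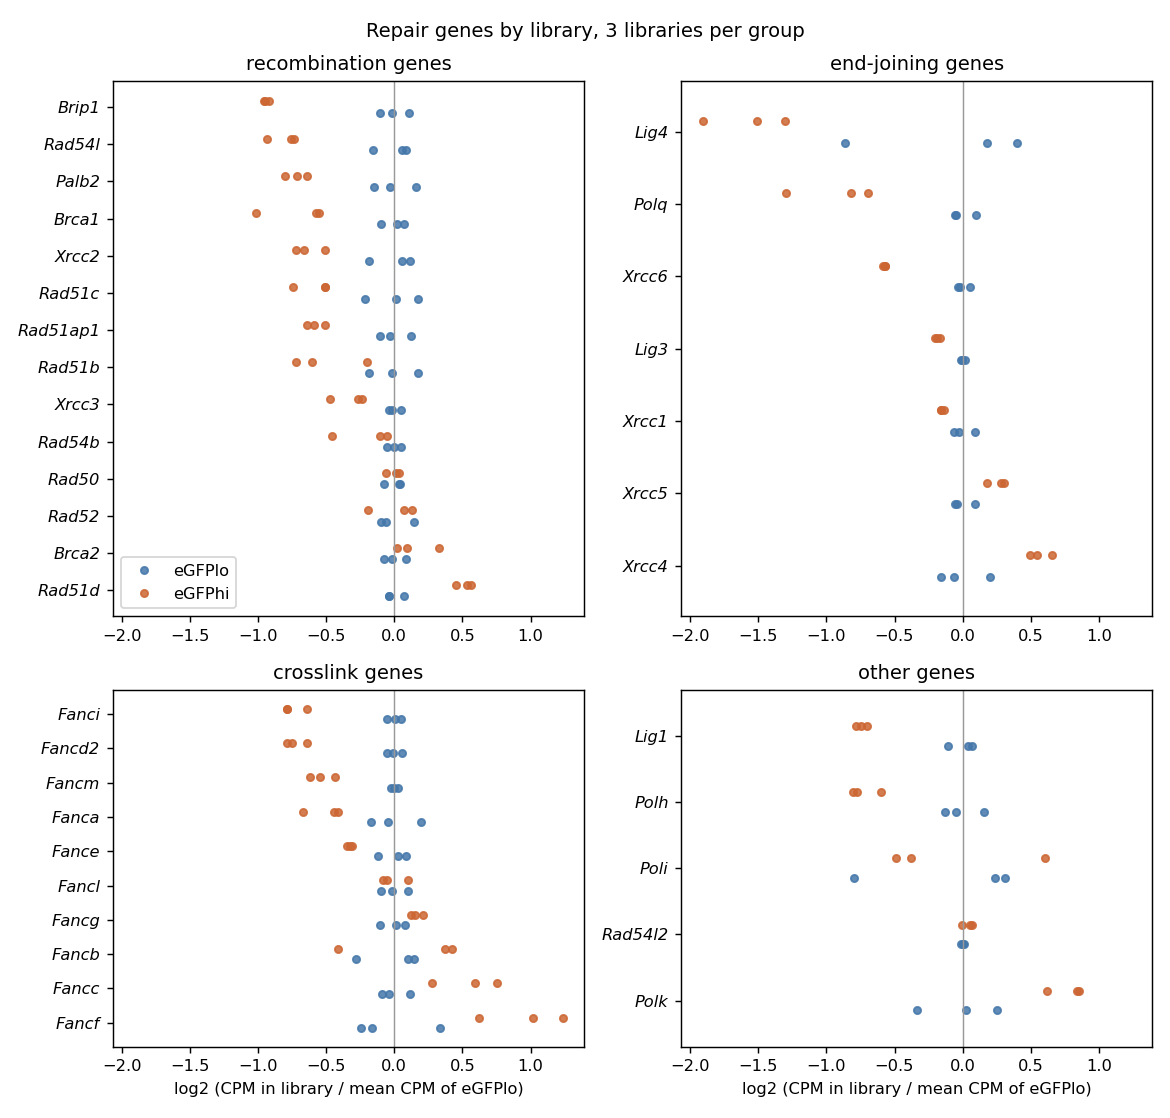
Level of 36 of the 37 repair genes in each library as log2 of its CPM over the mean CPM of eGFPlo, with 1 point per library and 3 libraries per group, in panels by role. Most eGFPhi points lie left of 0; Fancf, Fancc, Rad51d, Xrcc4, Xrcc5, Polk and Fancg lie to the right of all eGFPlo points, and Poli is spread widely in both groups.

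Cell cycle genes fell in the same libraries. Of 18 S phase genes 16 fell and 0 rose, and their median log2 fold change was -0.78. Their levels summed to 2817 to 2898 CPM in eGFPlo and 1675 to 1716 CPM in eGFPhi. All 15 mitosis genes fell, with a median of -1.38. Of the 37 repair genes 4 (Lig4, Polq, Brip1 and Rad54l) had a log2 fold change below the S phase median, and 1 (Lig4) below the mitosis median. The part of the cell cycle in the fall of repair genes was not tested.

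The promoters of the repair genes were searched for the sites that the E2F factors of S phase bind, spelled TTTCCCGC, TTTGGCGC or TTTCGCGC on either strand. The window ran from 250 bases before to 50 after each start. RefSeq sequences on GRCm38.p6 were found for 29 of the 37 genes; those without include Fancd2, Poli, Rad50, Rad51d, Rad54b, Rad54l2 and Xrcc2. A site was present in 5 of the 29 genes (17.2%), against 2.12% of 27025 genes with promoters in the same table and 5.37% of the 3535 of them that fell in eGFPhi. The share was 2.97% among those that rose and 4.02% among those tested that did not pass. Of the 29, a site was in 3 of 19 that fell (Lig1, Rad51c and Xrcc6). It was in 2 of 5 that did not pass the threshold (Brca2 and Fancg), and in 0 of 5 that rose. The promoters of Lig1, Rad51c and Xrcc6 are shown first, with the site in capitals. That of Brca2, chosen after its values were seen, follows as a gene that holds the site but did not pass the threshold.
Lig1 promoter, chr7:13278576-13278875, plus strand: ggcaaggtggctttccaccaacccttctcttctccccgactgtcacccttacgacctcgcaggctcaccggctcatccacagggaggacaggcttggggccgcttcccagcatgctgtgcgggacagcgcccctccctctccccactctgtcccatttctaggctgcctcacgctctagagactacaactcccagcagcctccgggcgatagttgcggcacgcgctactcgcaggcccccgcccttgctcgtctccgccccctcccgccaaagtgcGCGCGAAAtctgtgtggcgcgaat
Rad51c promoter, chr11:87404905-87405204, minus strand: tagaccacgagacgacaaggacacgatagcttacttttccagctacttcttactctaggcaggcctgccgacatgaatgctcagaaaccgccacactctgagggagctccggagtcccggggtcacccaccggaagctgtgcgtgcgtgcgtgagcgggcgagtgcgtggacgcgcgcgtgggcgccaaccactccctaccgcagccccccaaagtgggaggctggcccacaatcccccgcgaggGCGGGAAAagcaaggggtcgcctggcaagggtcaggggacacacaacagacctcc
Rad51c promoter of a second start, chr11:87404457-87404756, minus strand: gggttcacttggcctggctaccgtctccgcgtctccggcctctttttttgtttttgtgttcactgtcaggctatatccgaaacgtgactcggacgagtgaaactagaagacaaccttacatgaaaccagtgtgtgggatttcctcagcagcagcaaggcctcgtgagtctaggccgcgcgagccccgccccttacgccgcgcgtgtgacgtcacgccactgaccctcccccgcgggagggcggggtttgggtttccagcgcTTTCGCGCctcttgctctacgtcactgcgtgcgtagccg
Xrcc6 promoter, chr15:82016119-82016418, plus strand: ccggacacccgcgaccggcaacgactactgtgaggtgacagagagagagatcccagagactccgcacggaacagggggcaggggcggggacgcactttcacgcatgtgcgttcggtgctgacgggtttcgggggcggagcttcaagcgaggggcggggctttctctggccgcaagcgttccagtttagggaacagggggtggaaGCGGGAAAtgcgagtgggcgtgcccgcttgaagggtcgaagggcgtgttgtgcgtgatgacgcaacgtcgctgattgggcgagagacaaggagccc
Brca2 promoter, chr5:150522371-150522670, plus strand: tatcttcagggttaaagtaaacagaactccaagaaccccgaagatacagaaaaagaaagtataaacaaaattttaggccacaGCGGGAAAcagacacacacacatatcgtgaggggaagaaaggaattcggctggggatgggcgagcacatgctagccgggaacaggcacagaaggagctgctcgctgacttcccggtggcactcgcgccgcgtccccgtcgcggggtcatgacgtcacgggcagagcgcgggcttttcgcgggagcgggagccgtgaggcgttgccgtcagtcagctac
The site of Rad51c began 5 bases before 1 start and 11 bases into the transcript of the other. In Xrcc6 the site began 46 bases before the start and in Brca2 168 bases before it. Lig1 carried it 26 bases into the transcript of the start shown, and the windows of its other two starts did not hold it. The Y box ATTGG, on either strand, was in 16 of the 29 (55.2%) and in 41.1% of all genes with promoters. The cell cycle homology letters TTTGAA were in 2 (Polq and Rad51b; 6.90%) against 20.2%. A match describes letters only, and the exact spelling leaves out many variants of these sites.

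The crosslink repair genes, a class that here holds only those with Fanc symbols, moved in both directions. Of the 10, 5 fell (Fanci, Fancd2, Fancm, Fanca and Fance), 2 rose (Fancc and Fancf) and 3 (Fancb, Fancg and Fancl) did not pass the threshold; the median log2 fold change was -0.17. Of all genes tested 31.7% fell and 32.3% rose, against 50% and 20% of these 10. The ubiquitinated pair fell by nearly the same amount. Fancd2 (ENSMUSG00000034023, chromosome 6, 113531682 to 113597017, plus strand) stood at 26.4, 27.3 and 28.5 CPM in eGFPlo replicates 1 to 3 and at 17.5, 15.9 and 16.3 CPM in eGFPhi. Every eGFPhi library was below every eGFPlo library, and the gene was 1.66-fold lower (log2 fold change -0.73, SE 0.07, adjusted p = 7.40e-05). Fanci (ENSMUSG00000039187, chromosome 7, 79391929 to 79450264, plus strand) stood at 26.6, 27.5 and 25.6 CPM against 17.1, 15.4 and 15.4 CPM. Again the groups did not overlap, and Fanci was 1.67-fold lower (log2 fold change -0.74, SE 0.07, adjusted p = 8.30e-05). Fanci shares 15.95% of its exonic bases with Polg on the other strand, which had 53.9 CPM in eGFPlo and 55.2 CPM in eGFPhi.

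Fancm, which encodes the DNA translocase that recruits the core complex, measured 32.9, 33.4 and 34.2 CPM in eGFPlo and 24.8, 21.9 and 22.9 CPM in eGFPhi. It was 1.45-fold lower with no overlap (log2 fold change -0.54, SE 0.06, adjusted p = 2.43e-04). The core subunit gene Fanca had 24.3, 26.6 and 31.4 CPM against 17.3, 20.2 and 20.7 CPM, a 1.41-fold difference (log2 fold change -0.50, SE 0.11, adjusted p = 0.00568); eGFPlo replicate 3 was the highest library and eGFPhi replicate 1 the lowest. Fance, the subunit that contacts FANCD2, was 1.25-fold lower, at 8.49 ± 0.613 against 6.76 ± 0.0789 CPM (mean ± SD, n = 3 each; adjusted p = 0.0252 by edgeR). Its adjusted p was 0.0605 to 0.0747 when 1 of 5 libraries was left out, and it remained past the threshold only without eGFPlo replicate 3.

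Both other genes of the C, E and F subcomplex went up. Fancf (ENSMUSG00000092118, chromosome 7, 51860577 to 51862267, minus strand), a small gene of 1691 exonic bases, had 2.83, 1.89 and 1.99 CPM in eGFPlo and 4.54, 5.26 and 3.44 CPM in eGFPhi. It rose 2.01-fold, with no overlap between groups (log2 fold change 1.01, SE 0.23, adjusted p = 0.00601), on 27 to 137 counts per library. Fancc (ENSMUSG00000021461, chromosome 13, 63285043 to 63497278, minus strand) had 13.3, 11.5 and 11.96 CPM against 20.6, 18.4 and 14.8 CPM, a 1.46-fold rise (log2 fold change 0.55, SE 0.13, adjusted p = 0.00796). The eGFPhi libraries of Fancc were spread, with replicate 3 closest to eGFPlo. Both overlap exons of genes on the other strand: Fancf shares 14.96% of its exonic bases with Gas2, and Fancc 16.4% with the noncoding gene Gm16133, which had 3.07 and 4.52 CPM. Fancl likewise shares 13.7% with Vrk2 and Fanca 10.5% with Zfp276, each on the other strand. Whether the counting used strand is not given in the sources used here.

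Fancl and Fancb of the ubiquitin ligase module showed no change past the threshold, and neither did the core subunit gene Fancg. Fancl, the catalytic subunit, had 11.8, 13.6 and 12.5 CPM in eGFPlo and 11.9, 12.2 and 13.6 CPM in eGFPhi, with overlapping groups (log2 fold change -0.01, SE 0.10, adjusted p = 0.952). Its partner Fancb was at 4.24 ± 0.652 and 4.79 ± 1.40 CPM (SD, n = 3 each), with eGFPhi replicate 3 at 3.19 CPM, below the other 5 libraries. Fancg, which binds FANCA, was at 11.2 ± 0.725 and 12.5 ± 0.387 CPM; its groups did not overlap, but its adjusted p was 0.149 (edgeR).

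Most recombination genes fell. Of the 15, 10 fell, 1 rose (Rad51d) and 4 (Brca2, Rad50, Rad52 and Rad54b) did not pass the threshold; the median log2 fold change was -0.52. The shares were 66.7% lower and 6.67% higher, against 31.7% and 32.3% of all genes tested. Brip1 (ENSMUSG00000034329, chromosome 11, 86058138 to 86201193, minus strand), the helicase gene that partners BRCA1, had 41.7, 38.3 and 35.9 CPM in eGFPlo and 19.9, 20.4 and 20.04 CPM in eGFPhi. It showed the largest fall of the class, 1.91-fold, and its eGFPhi libraries were nearly equal (log2 fold change -0.94, SE 0.07, adjusted p = 1.93e-05). Brca1 (ENSMUSG00000017146, chromosome 11, 101488764 to 101551955, minus strand) had 71.2, 68.6 and 63.3 CPM against 33.5, 45.5 and 46.2 CPM, and was 1.61-fold lower (log2 fold change -0.68, SE 0.12, adjusted p = 0.00142). Within eGFPhi, replicate 1 lay well below the other two. Palb2, the bridge between BRCA1 and BRCA2, had 14.6, 13.4 and 16.6 CPM against 9.08, 8.53 and 9.56 CPM, 1.65-fold lower with no overlap (log2 fold change -0.72, SE 0.11, adjusted p = 7.83e-04).

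Brca2 (ENSMUSG00000041147, chromosome 5, 150522630 to 150570329, plus strand), the gene of the partner that PALB2 brings to breaks, did not pass the threshold. It measured 58.2, 60.7 and 65.0 CPM in eGFPlo and 76.9, 65.2 and 62.3 CPM in eGFPhi, with overlapping groups and a log2 fold change of 0.15 (SE 0.08, adjusted p = 0.164, edgeR). The highest value was that of eGFPhi replicate 1, the library in which Brca1 was lowest. Within each library, the ratio of Brca2 to Palb2 was 3.99, 4.53 and 3.91 in eGFPlo and 8.47, 7.65 and 6.52 in eGFPhi. The ratio of Brca1 to its partner Bard1, by contrast, overlapped between groups, at 2.02, 1.76 and 1.83 and 1.57, 2.16 and 2.16.

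Rad51ap1 and Rad54l, whose products stimulate strand exchange, were 1.49-fold and 1.74-fold lower, at 16.2 ± 1.33 against 10.9 ± 0.50 CPM and 42.2 ± 3.81 against 24.1 ± 1.78 CPM (SD, n = 3 each). Of the exonic bases of Rad54l, 15.4% are shared with Lrrc41 on the other strand. Rad54b, a relative of Rad54l, was at 18.0 ± 0.636 and 15.7 ± 2.30 CPM and did not pass (edgeR adjusted p = 0.159); 35.8% of its exonic bases are shared with Fsbp on the same strand, so its reads are uncertain.

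The 5 genes Rad51b, Rad51c, Rad51d, Xrcc2 and Xrcc3 encode related proteins that work in paralog complexes of recombination. They did not move together: 4 fell and Rad51d rose. Rad51d (ENSMUSG00000018841, chromosome 11, 82876434 to 82890614, minus strand) had 21.0, 21.0 and 22.7 CPM in eGFPlo and 29.5, 31.2 and 31.9 CPM in eGFPhi, a 1.43-fold rise with tight replicates (log2 fold change 0.52, SE 0.06, adjusted p = 2.85e-04). Xrcc2, whose product binds RAD51D directly, went the other way with 20.6, 21.4 and 17.4 CPM against 13.9, 11.99 and 12.5 CPM, 1.55-fold lower (log2 fold change -0.63, SE 0.11, adjusted p = 0.00132). With the assumed coefficient of variation the rise of Rad51d did not pass (adjusted p = 0.0827, edgeR). In the ratio of Rad51d to Xrcc2 no library of one group reached the range of the other: it was 1.02, 0.980 and 1.31 in eGFPlo and 2.12, 2.60 and 2.56 in eGFPhi.

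Rad51c, shared by both paralog complexes, had 2.83, 3.70 and 3.32 CPM in eGFPlo and 2.31, 1.96 and 2.31 CPM in eGFPhi, and was 1.52-fold lower (log2 fold change -0.60, SE 0.17, adjusted p = 0.0152). Rad51b had 8.995, 10.1 and 11.6 CPM against 8.90, 6.72 and 6.22 CPM, 1.43-fold lower (adjusted p = 0.0239, edgeR), and eGFPhi replicate 1 came within 0.1 CPM of the lowest eGFPlo library. Xrcc3, the other partner of RAD51C, had 11.9, 12.1 and 12.6 CPM against 10.1, 8.80 and 10.4 CPM, 1.26-fold lower (adjusted p = 0.0209, edgeR). Leaving out single libraries took the adjusted p of these 3 genes past 0.05: to 0.0585 and 0.0509 for Rad51c without eGFPhi or eGFPlo replicate 2, to 0.0698 and 0.0631 for Xrcc3 without eGFPhi replicate 2 or eGFPlo replicate 3, and to 0.0510 to 0.0834 for Rad51b when replicate 2 or 3 of either group was left out. DESeq2 gave an adjusted p of 0.117 for Rad51c, 0.0856 for Xrcc3 and 0.151 for Fance. With the replicate number as a block, Rad51b had an adjusted p of 0.0588, Fance of 0.0567 and Xrcc1 of 0.0826.

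Rad50, the strand-tethering ATPase that acts at the first step of break processing, was among the best measured of the genes and nearly equal, at 192, 177 and 191 CPM in eGFPlo and 192, 189 and 179.5 CPM in eGFPhi (log2 fold change -0.00, SE 0.04, adjusted p = 0.962). Of its complex partners, Nbn rose 1.23-fold, from 34.7 ± 0.152 to 42.7 ± 1.09 CPM, and Mre11a was 1.12-fold lower, at 71.3 ± 3.69 and 63.7 ± 1.14 CPM (SD, n = 3 each; edgeR adjusted p = 8.20e-04 and 0.0180). Rad52, which anneals single strands, had 9.85, 11.4 and 9.63 CPM against 8.99, 10.8 and 11.3 CPM, with overlapping groups (log2 fold change 0.02, SE 0.12, adjusted p = 0.896).

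All 7 end-joining genes passed the threshold, as did 64.0% of all genes tested. The 5 lower in eGFPhi (71.4%) stand beside 31.7% of all genes, and the 2 higher (28.6%) are near the 32.3% of all genes. The median log2 fold change of the 7 was -0.19. The genes of the Ku ring differed in direction. Xrcc6 (ENSMUSG00000022471, chromosome 15, 81987835 to 82040085, plus strand) had 93.8, 92.9 and 98.4 CPM in eGFPlo and 63.4, 63.9 and 64.0 CPM in eGFPhi, 1.49-fold lower with little spread (log2 fold change -0.58, SE 0.04, adjusted p = 9.37e-06). Xrcc5 (ENSMUSG00000026187) had 38.5, 42.5 and 38.9 CPM against 45.3, 48.6 and 49.3 CPM, a 1.196-fold rise with no overlap (log2 fold change 0.26, SE 0.06, adjusted p = 0.00605). The rise of Xrcc5 did not pass against a minimum fold of 1.2 (adjusted p = 0.428, edgeR) or with the assumed coefficient of variation of 0.2 (adjusted p = 0.441), whereas the fall of Xrcc6 passed both. The ratio of Xrcc5 to Xrcc6 went from 0.410, 0.457 and 0.395 in eGFPlo to 0.715, 0.761 and 0.770 in eGFPhi. In mean CPM, Xrcc6 was the higher in both groups (95.0 against 39.9 in eGFPlo and 63.7 against 47.7 in eGFPhi). Per kilobase of merged exons, Xrcc6 was the higher in eGFPlo (21.2 against 15.6 CPM per kb) and Xrcc5 in eGFPhi (18.7 against 14.2 CPM per kb). That order rests on the merged lengths of 4476 bases for Xrcc6 and 2555 for Xrcc5.

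The ligation pair also split. Lig4 (ENSMUSG00000049717, chromosome 8, 9969049 to 9977686, minus strand), the ligase that seals ends in classical end joining, had 14.0, 5.87 and 12.1 CPM in eGFPlo and 3.74, 2.84 and 4.32 CPM in eGFPhi. It showed the largest fall among the 37, 2.96-fold (log2 fold change -1.56, SE 0.33, adjusted p = 0.00408), but eGFPlo replicate 2 stood well below its 2 companions. Without that library the log2 fold change was -1.86, and over all 6 omissions it ran from -1.86 to -1.33. Xrcc4 (ENSMUSG00000021615, chromosome 13, 89774027 to 90089608, minus strand), the scaffold that LIG4 binds, had 16.0, 13.3 and 12.5 CPM against 20.4, 22.0 and 19.6 CPM, a 1.49-fold rise (log2 fold change 0.57, SE 0.11, adjusted p = 0.00229). With the assumed coefficient of variation the rise of Xrcc4 did not pass (adjusted p = 0.0573, edgeR). The ratio of Xrcc4 to Lig4 was 1.14, 2.27 and 1.04 in eGFPlo and 5.45, 7.73 and 4.55 in eGFPhi.

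Polq (ENSMUSG00000034206, chromosome 16, 37011786 to 37095417, plus strand), whose polymerase joins ends at short matching stretches, had 53.5, 59.4 and 53.7 CPM in eGFPlo and 22.6, 31.5 and 34.3 CPM in eGFPhi. It was 1.87-fold lower (log2 fold change -0.90, SE 0.14, adjusted p = 7.63e-04), with eGFPhi replicate 1 the lowest, as it was for Brca1. Lig3 and Xrcc1, a ligase and its scaffold that also repair single-strand breaks, were 1.14-fold and 1.11-fold lower, at 73.7 ± 0.858 against 64.7 ± 0.779 CPM and 37.7 ± 2.13 against 33.9 ± 0.259 CPM (SD, n = 3 each; edgeR adjusted p = 0.00230 and 0.0474). The call on Xrcc1 was lost under most alternatives, with adjusted p of 0.0544 by limma-voom and 0.174 by DESeq2, and of 0.0669 to 0.126 when any 1 library other than eGFPlo replicate 3 was left out. Of the exonic bases of Lig3, 25.1% are shared with Rffl on the other strand, which rose from 21.6 to 35.4 CPM.

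**Figure D2:**
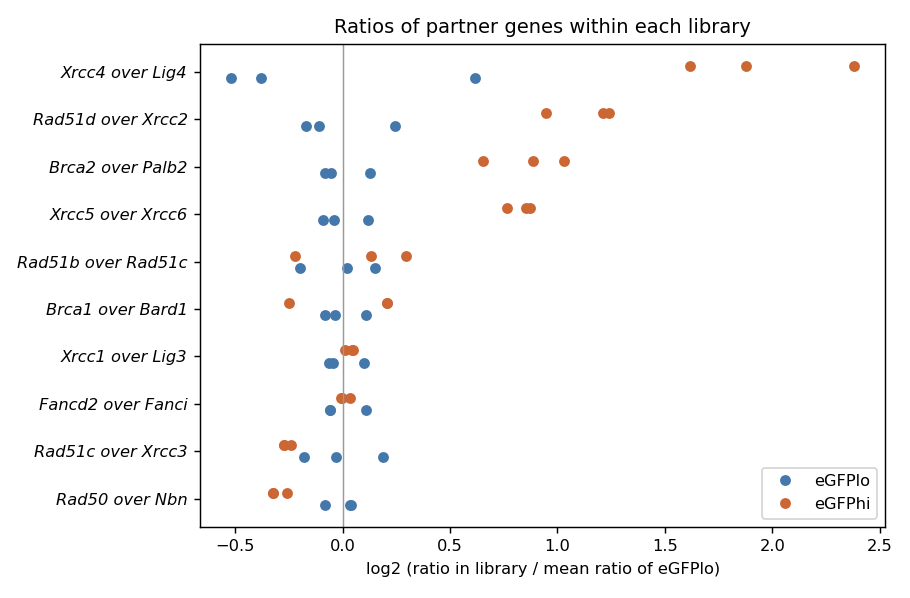
Ratio of CPM of 2 partner genes in each library, as log2 over the mean ratio of eGFPlo, with 1 point per library and 3 libraries per group. Of the 10 pairs drawn the groups separate for 6, most widely for Xrcc4 over Lig4 and Rad51d over Xrcc2, and overlap for Fancd2 over Fanci.

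Of 11 partner pairs chosen by known complexes, 6 had ratios whose groups did not overlap. Single genes did so for 35.2% (above) and 34.6% (below) of all tested, so the count of pairs does not set them apart. In addition to Brca2 over Palb2, Rad51d over Xrcc2, Xrcc5 over Xrcc6 and Xrcc4 over Lig4, these were Rad50 over Nbn and Rad51c over Xrcc3, both lower in eGFPhi. For each of the 6 the exact two-sided permutation test gave p = 0.1, the smallest possible with 3 against 3, and 0.183 adjusted over the 11 pairs, so this design could not pass a threshold of 0.05. The ratio of Fancd2 to Fanci stayed close to 1 in every library, at 0.990, 0.990 and 1.11 in eGFPlo and 1.03, 1.03 and 1.06 in eGFPhi. Ratios also overlapped for Rad51b over Rad51c and Xrcc1 over Lig3. The ratios compare CPM, so only their change between groups can be read, not their absolute value.

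The 5 remaining genes act elsewhere. Lig1 (ENSMUSG00000056394, chromosome 7, 13277283 to 13311433, plus strand), which joins the fragments of the lagging strand in replication, had 212, 234 and 239 CPM in eGFPlo and 140.3, 133 and 136 CPM in eGFPhi, and was 1.67-fold lower (log2 fold change -0.74, SE 0.05, adjusted p = 1.01e-05). The bypass polymerase gene Polh, which copies past ultraviolet lesions, had 30.6, 26.6 and 25.1 CPM against 16.0, 15.7 and 18.1 CPM, 1.65-fold lower (log2 fold change -0.72, SE 0.10, adjusted p = 4.63e-04). Polk (ENSMUSG00000021668, chromosome 13, 96480690 to 96542579, minus strand), another bypass polymerase gene of the same family, rose 1.71-fold from 9.59, 7.48 and 11.2 CPM to 14.5, 17.1 and 16.9 CPM, and no eGFPhi library reached down to the eGFPlo range (log2 fold change 0.78, SE 0.15, adjusted p = 0.00292). Rad54l2, a helicase gene of the same wider family as Rad54l, was at 123 ± 0.943 and 126 ± 3.23 CPM (SD, n = 3 each), overlapping (log2 fold change 0.04, SE 0.03, adjusted p = 0.305).

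Poli, the third bypass polymerase gene, varied within groups more than between them. It had 39.8, 41.9 and 19.4 CPM in eGFPlo and 51.3, 25.9 and 24.0 CPM in eGFPhi (log2 fold change -0.02, SE 0.37, adjusted p = 0.969). The highest library was 2.15 times the lowest in eGFPlo and 2.14 times in eGFPhi, where the median gene of similar level (within 2-fold) had 1.11 and 1.10, which put Poli at percentiles 99.0 and 98.7. The 3 high libraries were eGFPlo replicates 1 and 2 and eGFPhi replicate 1. By the same measure Lig4 in eGFPlo (2.39 times), Polq in eGFPhi (1.52 times) and Brca1 in eGFPhi (1.38 times) were at percentiles 97.0, 96.0 and 95.1.

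**Figure D3:**
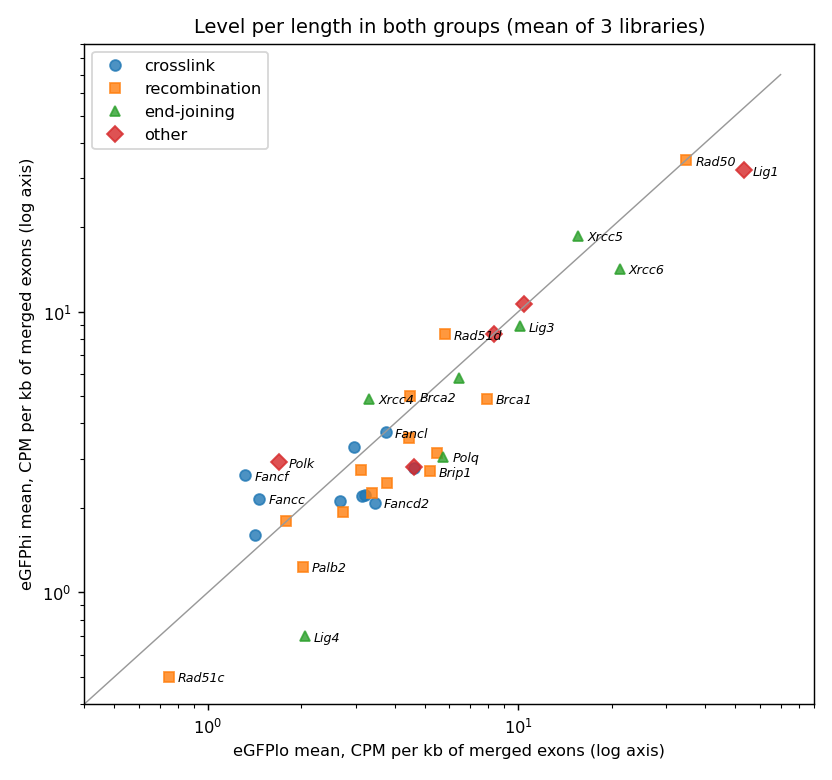
Mean CPM per kilobase of merged exons in eGFPlo (horizontal) and eGFPhi (vertical), both on log axes, with 1 point for each of 36 of the 37 repair genes, marked by role, and a line of equality. Lig1 and Rad50 lie highest and Rad51c lowest, and Xrcc5 and Xrcc6 lie on opposite sides of the line.

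Compared per length, the repair genes spanned a wide range. The length joins the exons of all annotated transcripts of a gene, whichever the cells used, and the order of genes depends on it. Lig1 was highest in eGFPlo at 53.4 CPM per kb, followed by Rad50 at 34.8, and in eGFPhi Rad50 (34.7 CPM per kb) was above Lig1 (31.9 CPM per kb). Rad51c was lowest in both groups, at 0.749 and 0.501 CPM per kb. The crosslink genes lay in a narrow band: 1.32 (Fancf) to 4.61 (Fanci) CPM per kb in eGFPlo and 1.61 (Fancb) to 3.72 (Fancl) in eGFPhi. Medians in eGFPlo were 3.04 CPM per kb for crosslink, 4.19 for recombination and 6.47 for end-joining genes. In eGFPhi they were 2.22, 2.72 and 5.82. Lig4 went from rank 30 of 37 in eGFPlo to 36 in eGFPhi, and Fancf from 36 to 24.

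Other genes of these pathways were read from lists set by role, beside the 31.7% of all genes tested that fell and the 32.3% that rose. The list of 21 further crosslink genes held 8 that fell (38.1%, near the share of all genes) and 2 that rose (9.52%), its median log2 fold change being -0.12. Usp1, which removes the ubiquitin from FANCD2, was 1.77-fold lower at 118 ± 10.1 against 66.6 ± 9.54 CPM (SD, n = 3 each). The ubiquitin ligase gene Rfwd3 and the nuclease subunit gene Eme1 were 1.76-fold and 1.59-fold lower, at 78.5 ± 1.27 against 44.5 ± 1.43 CPM and 11.8 ± 0.370 against 7.43 ± 0.0579 CPM. The 2 that rose, named after their values were seen, were the nuclease genes Mus81 and Ercc4 (log2 fold changes 0.51 and 0.65). Ercc4 was widely spread in eGFPlo, at 35.4, 28.5 and 18.2 CPM (SE 0.20, adjusted p = 0.0253, edgeR). Mus81 and Eme1 encode partners in 1 nuclease.

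The list of 36 further recombination genes held 19 that fell (52.8%) and 3 that rose (8.33%), its median being -0.35. Psmc3ip, which assists strand invasion, was 2.05-fold lower at 23.3 ± 1.34 against 11.4 ± 0.451 CPM (SD, n = 3 each). Rbbp8, which encodes the end-resection factor CtIP, was 1.39-fold lower, and Sem1, encoding a small acidic protein that binds BRCA2 and the proteasome, 1.57-fold lower. Genes named after their values were seen include Gen1, a resolvase gene and the largest fall of the list, with a log2 fold change of -1.64. The 3 that rose were Nbn, Sfr1 and Swsap1.

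Of 16 further end-joining genes tested 8 fell (50%) and 2 rose (Trp53bp1 and Aptx; 12.5%), with a median of -0.19; Shld1 was too low to test. Dntt encodes the template-free polymerase of developing lymphocytes and fell 54.8-fold, at 204 ± 6.07 against 3.65 ± 0.435 CPM (SD, n = 3 each), and B lineage markers fell in the same libraries as given above. Parp1, the break sensor gene, was 1.49-fold lower, and Trp53bp1, whose product shields ends from resection, rose 1.30-fold from 107 ± 3.41 to 139 ± 2.94 CPM. Of 12 damage signalling genes 4 fell (Topbp1, Chek1, Trp53 and Atrip), 1 rose (Mdc1) and 7 did not pass, with a median of -0.07. The share that fell, 33.3%, was near the 31.7% of all genes tested. The kinase gene Chek1 was 1.68-fold lower, and the kinase genes Atm and Atr had log2 fold changes of 0.05 and -0.06 (adjusted p = 0.103 and 0.170, edgeR). The p53 targets Cdkn1a and Mdm2 had 0.21 and 0.06 (adjusted p = 0.0855 and 0.372, edgeR).

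**Figure D4:**
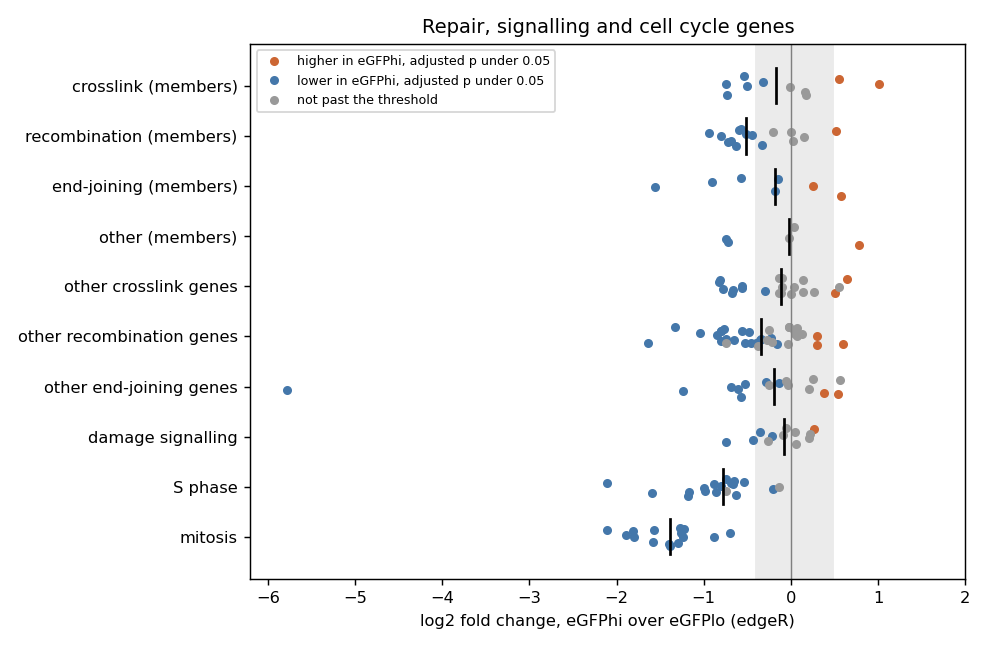
Log2 fold change (eGFPhi over eGFPlo) of each repair gene by role, of further pathway genes and of cell cycle genes, with 1 point per gene, coloured by the edgeR call, and a black bar at each median. The grey band spans the quartiles of all genes tested, -0.40 to 0.49. Mitosis genes all lie left of 0, while the repair lists extend to both sides.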

How the data were processed

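Poly-A RNA from 3 eGFPlo and 3 eGFPhi libraries was sequenced as stranded paired-end libraries, per the labels' protocols. The submitters' processing notes name CASAVA 1.8, HISAT2, StringTie and edgeR and the builds hg38 and GRCm38 without roles. How reads were counted, and whether by strand, is not stated there or in the labels. The deposited table holds whole-number counts per gene, treated as raw, and FPKM values that the authors computed. Of 26776 genes, 26689 have a GENCODE M21 identifier, and 36 of the 37 repair genes have the same position there (Xrcc5 starts 6 bases apart). FPKM served only as an alternative; level per length used CPM over merged GENCODE exons.

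The tests ran in edgeR 4.0.16 under R 4.3.3, on genes that passed filterByExpr (minimum count 10, minimum total 15). The quasi-likelihood model held group alone, with TMM normalization and a threshold of 0.05. SE is the absolute log2 fold change over the square root of F. The procedure was tested on simulated data. The repair genes and lists were chosen with earlier results of these data known. Named genes mostly follow a fixed list of central genes, genes that rose, the largest fall of each class and the 3 smallest p of each further list. Per-library values of Fancl, Rad50, Poli and Ercc4 lie outside that plan. The values of Gen1, Nbn, Mre11a, Mus81, Ercc4, Atm, Atr, Cdkn1a and Mdm2 were added after they were seen. Residual profiles of same-numbered libraries did not correlate (r = -0.0133, 0.000555 and -0.0108), and the replicate pairs differed by more than sampling noise. Alternatives used RLE and upper-quartile factors, other filters, DESeq2 1.42.0, limma-voom and limma 3.58.1 on log2 of FPKM plus 1, a minimum fold of 1.2, an assumed coefficient of variation of 0.2, the block, genes without exon overlap, and omission of each library. A planned search of protein sequences was not run. The values of 1 repair gene and 1 partner pair enter the counts and are not reported here.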

Additional observations from a re-analysis of the deposited data

How the results depend on the processing

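Without 1 library at a time, 17 to 20 repair genes fell and 6 rose; crosslink genes that fell numbered 4 to 5, recombination genes 7 to 10 and end-joining genes 4 to 5, and over all genes 5302 to 5734 rose and 5230 to 5693 fell. All 6 rises and 17 of the 22 falls kept their call in each omission; the exceptions were Fance, Rad51b, Rad51c, Xrcc1 and Xrcc3. With an assumed coefficient of variation of 0.2, 3637 genes rose and 2982 fell over the table, and 2 repair genes rose (Fancf and Polk) and 12 fell, of them 2 crosslink, 5 recombination and 3 end-joining genes. Under a minimum fold of 1.2, 3 end-joining genes fell; the calls on Xrcc5, Fance, Rad51b, Xrcc3, Lig3 and Xrcc1 were lost. Without genes that overlap the exons of another gene 23 repair genes were left, of which 3 rose and 13 fell, 3 of them crosslink and 2 end-joining genes; fewer genes were tested there. With the replicate block 6 rose and 19 fell; it changed no call but those of Rad51b, Fance and Xrcc1. Nothing in the labels ties a replicate number to an animal or a day. Shares of all genes called are not set beside the counts for the minimum fold, the exon overlap and the block. Those counts therefore say only which calls on repair genes were kept.

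Among the repair genes and the alternatives run, directions reversed only for genes near no change and not past the threshold. Fancl was 0.0174 with upper-quartile factors, 0.0107 under the filter of 5 CPM in 3 libraries and 0.0080 with no filter, and -0.0635 to 0.0432 in omissions. Rad50 was 0.0222 with upper-quartile factors, 0.0157 under the 5 CPM filter, 0.0114 with no filter, 0.0030 on the FPKM scale, 0.0010 without overlapping genes and -0.0423 to 0.0280 in omissions. Poli was 0.0058 with upper-quartile factors and -0.41 to 0.18 in omissions, and Rad52 was -0.0353 to 0.11 in omissions. The cause was not tested. Rad51c, Fancf, Fancb, Lig4 and Fance had under 100 counts in at least 1 library, which limits their precision.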
